A study of Mus musculus with 12 samples.

Results

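The most abundant kidney transcripts, as far as array signal can rank them, were the 500 brightest of the 48057 probes whose names begin with ASMM10EP3A, on an array with 60691 non-control probes. They were chosen by their level, the log2 of the summed signal of the m6A-bound and the unbound RNA, averaged over the 6 arrays. Before summing, the signal of a fraction was scaled to the 75th percentile of the non-control spots in that channel. Since the level chose the members, it is given only as a description. The genotype did not enter the choice. The ratio of bound to unbound RNA is made from the same 2 channels as the level, so a probe could be chosen through 1 bright channel, and the members' ratios are partly set by the rule.

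The arrays held kidney RNA of male C57BL/6 mice 6 to 8 weeks old. The 3 WT mice and the 3 METTL3-cKO mice (conditional knockout of the m6A writer METTL3, written cKO) all received intraperitoneal glyoxylate, 100 mg/kg in 200 µl daily for 7 days, to model calcium oxalate nephrocalcinosis. Every comparison is therefore between glyoxylate-treated kidneys. The labels used here do not name the promoter or the cells of the deletion. Each kidney gave 2 samples on 1 array: RNA eluted from an anti-m6A antibody (IP, labelled with Cy5) and RNA left in the supernatant (labelled with Cy3).

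N6-methyladenosine (m6A) is a methyl mark on adenosines inside messenger RNAs and other transcripts. METTL3 is the catalytic subunit of the nuclear complex that writes it, demethylases can remove it, and reader proteins that bind it affect splicing, export, translation and decay. In the kidney, the most abundant messages are known to include those of mitochondrial respiration, ribosomal proteins and tubular transport. With an antibody that separates whole transcripts, a high ratio of IP to supernatant signal marks a transcript of which a larger portion was captured, relative to other probes on the same array.

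None of the 500 members could be given a gene name. The files pair 50 probes with an accession, 45 of them matched a symbol, and none of these is a member. Members are therefore given by probe identifier, with no sequence and no function, and the kidney label, the marker lists of kidney cell types and Mettl3 itself could not be checked among them. Some named transcripts fell inside the range of the members' levels. Apoe, the apolipoprotein E gene, had a mean level of 8.45 ± 0.33 (SD, n = 6 arrays) and would rank at 236, and Gpi1, the gene of glucose-6-phosphate isomerase, had a level of 7.99 ± 0.27 and would rank at 391. Actb, the beta-actin gene, stood at 4.75 ± 0.33 and would rank at 2832. Different probes bind with different strength, so these places compare signals and not amounts of RNA.

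On the level scale, on which a probe with both channels at their 75th percentile would be at 1, the members ran from 10.49 down to 7.68 with a median of 8.41. The median over all ASMM10EP3A probes was -0.98. The median member was 170-fold as bright as that 75th percentile probe, and the brightest member was 7.00-fold as bright as the faintest. The rule's threshold fell in a continuous range: the levels at ranks 500 and 501 were 7.68315 and 7.68272.

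The brightest member, ASMM10EP3A100208578, had levels of 10.50, 10.57 and 10.60 on WT arrays 1, 2 and 3 and of 10.52, 10.24 and 10.51 on cKO arrays 1, 2 and 3. The next, ASMM10EP3A105607815, had levels of 10.53, 9.74 and 10.18 in WT and of 10.12, 10.15 and 10.16 in cKO. In both members the genotypes overlapped. They differed in the direction of their ratio, with a WT mean of 1.10 ± 0.30 for the first and of -0.87 ± 0.35 for the second (log2 ratio, SD, n = 3).

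Every one of the 500 members was well above background on each of the 6 arrays, in the IP and the supernatant channel alike, and no member spot was saturated. The scanner software had marked 57 of their 3000 spot values as outliers (40 in WT and 17 in cKO, in 53 members), and these values were left out of ratios and tests. The choice of members depended moderately on the array: the 500 brightest probes of single arrays shared between 426 (WT 3) and 467 (cKO 3) with the members, and 347 members were among the 500 brightest on every array. Ranked by the IP channel alone, 387 members would have been chosen, and by the supernatant channel alone 410. Of the 500, 297 were among the brightest in both channels, 90 only in the IP and 113 only in the supernatant.

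WT 3 stood apart in level. Across the members, its levels correlated with those of the other arrays at 0.57 to 0.70, while the other pairs of arrays ranged from 0.81 to 0.94. In the ratio it did not stand apart, with correlations of 0.92 to 0.98 against 0.90 to 0.98 between the others. These correlations are across members, which are not replicates. Leaving WT 3 out of the ranking kept 478 of the 500 members. The file headers tell 2 scans apart, with WT 1 and WT 3 in scan 1 and WT 2 and all cKO arrays in scan 2, so that scan and genotype partly coincide. Over all probes, the share well above background in the supernatant channel was 40.9% ± 10.6 in WT and 53.5% ± 3.52 in cKO (SD, n = 3), with 52.5% on WT 2. The part of scan and of supernatant detection in the genotype differences was tested only through the fits with the scan given below.

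The members held a large share of the array signal in each fraction. Their part of the summed signal of non-control probes was 34.6% ± 1.83 in the IP and 37.2% ± 2.30 in the supernatant of WT kidneys, and 35.4% ± 1.32 and 36.5% ± 0.763 in those of cKO kidneys (SD, n = 3). The genotypes differed by less than their spread in both fractions.

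Most members departed from the array's median probe in their ratio of IP to supernatant signal. As processed here more of them passed the test below it than above it, an order that other processings turned. The ratio is the log2 of IP over supernatant signal minus the array's median over all probes kept, so 0 is the median probe and not an equal amount in both fractions. In WT, 166 members passed the test above 0 (33.2% of members, with a background of 33.2% among all 28344 probes tested) and 242 passed below 0 (48.4% of members, with a background of 33.8%). In cKO, 183 passed above 0 (36.6%, background 28.5%) and 209 below 0 (41.8%, background 29.7%). The test was limma's moderated two-sided test of the mean ratio against 0, and a member passed where its p, adjusted over all probes by Benjamini-Hochberg, was under 0.05. Without cKO 2 or cKO 3, the count above 0 in cKO dropped to 107 and 95, with no share of all probes given here. With normexp background correction the order was the other way in both genotypes, with 200 members above and 170 below 0 in WT (40% and 34%, against 28.0% and 24.6% of all probes) and 197 above and 130 below in cKO (39.4% and 26%, against 24.6% and 22.9%). In cKO the order also turned with background-subtracted signals, at 193 above and 168 below (38.6% and 33.6%, against 27.3% and 29.2% of all probes). It turned as well with the filter that asks for detection on every array, at 216 and 201 (43.2% and 40.2%, against 34.4% and 35.2%).

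The counts differed with the channel through which a member was bright. Of the 90 members among the brightest only in the IP, 70 passed above 0 in WT and 0 below. All 113 that were among the brightest only in the supernatant passed below 0 in WT. These counts are tied to the choice and are a description. Among the 297 bright in both channels, 96 passed above and 129 below 0 in WT, and 109 above and 97 below in cKO.

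The 2 genotypes largely called the same members. Above 0 in both were 162 members (32.4%, against 25.0% of all probes tested), and below 0 in both were 209 (41.8%, against 26.3%). No member was called in opposite directions, against 56 of all probes (0.198%), a share too small to set the members apart. The remaining members were called in 1 genotype only (37 in WT and 21 in cKO) or in neither (71). Both genotypes came from 1 fit with a shared estimate of the spread.

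The WT ratios of the members spanned from -4.94 to 3.73 in mean. The member with the highest WT ratio, ASMM10EP3A118559534, had log2 ratios of 3.05, 3.98 and 4.15 on the WT arrays, a mean of 3.73 that puts it 13.2-fold above the median probe (adjusted p = 4.3e-06 in limma). Its cKO ratios of 2.22, 2.58 and 2.47 all lay below those of WT, a difference that did not pass the test (-1.31 ± 0.32, SE, adjusted p = 0.159). ASMM10EP3A113686343 followed with 2.91, 3.58 and 3.67 in WT (10.5-fold, adjusted p = 4.0e-06). Both lay far up the range of ratios while at ranks 195 and 489 by level, so a high ratio was not limited to the brightest members.

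At the other end, ASMM10EP3A118965345 had log2 ratios of -4.84, -4.70 and -5.28 in WT, 30.7-fold below the median probe (adjusted p = 9.6e-07 in limma), and of -4.23, -4.37 and -4.42 in cKO. ASMM10EP3A107434179 had -4.86, -4.35 and -4.90 in WT (26.0-fold below, adjusted p = 1.1e-06) and -4.26, -4.04 and -4.24 in cKO. These were the lowest pair in both genotypes. In each, all cKO ratios were closer to 0 than all WT ratios, by 0.60 ± 0.23 and 0.52 ± 0.24 in mean (SE), which did not pass the test (adjusted p = 0.259 and 0.312 in limma). The supernatant signals of the first in WT were 8.58, 8.01 and 9.01 and its IP signals 3.77, 3.26 and 3.78, each on the log2 scale of its own channel, so they do not say how its RNA was divided between the fractions.

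In cKO the highest ratios belonged to ASMM10EP3A100108186, with 2.16, 3.61 and 2.79, and ASMM10EP3A106863771, with 2.23, 3.09 and 2.85 (7.24-fold and 6.60-fold above the median probe, adjusted p = 0.00013 and 7.4e-05 in limma). Their WT ratios were 2.21, 3.67 and 2.73, and 2.16, 3.56 and 3.14. In both members the genotypes overlapped, and the genotype differences were -0.01 ± 0.46 and -0.23 ± 0.39 (SE). Ratios thus varied more between arrays of 1 genotype here than between genotypes.

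As processed here, the centre of the members' ratios was lower on every WT array than on every cKO array. The median member ratio was -0.29, -0.23 and -0.46 on WT arrays 1, 2 and 3 (mean -0.33 ± 0.12, SD) and -0.11, -0.04 and -0.11 on cKO arrays 1, 2 and 3 (mean -0.08 ± 0.04). The 2 sets of arrays did not overlap. Between 200 and 227 members had a ratio above 0 on the WT arrays and between 226 and 247 on the cKO arrays. Whether the median member lay below or above the median probe depended on the processing: with normexp background correction it was at 0.10 in WT and 0.20 in cKO, and with only probes well above background on all arrays as the reference it was at -0.06 and 0.07. The genotype difference was 0.24 as processed here. With normexp the WT medians were 0.54, -0.71 and 0.47 and the cKO medians 0.30, 0.11 and 0.18, which overlap, and the difference of 0.10 was well within the WT SD of 0.70. The arrays of the genotypes overlapped also with loess and Aquantile normalization, where the difference was 0.20 and the WT SD 0.28, and with background-subtracted signals. As processed here, the difference was 0.18 without WT 3 and 0.15 between WT 2 and the cKO arrays of the same scan.

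The spread of the ratios over members was wider in WT than in cKO. The interquartile range was 2.17, 2.54 and 2.33 log2 units on the WT arrays (mean 2.35 ± 0.18) and 1.33, 1.85 and 2.10 on the cKO arrays (mean 1.76 ± 0.40), again without overlap. The lower quartile was -1.58 ± 0.18 in WT against -1.01 ± 0.13 in cKO, while the upper quartile was 0.76 ± 0.20 and 0.75 ± 0.29. Among the other probes the range was also wider in WT, at 1.74 ± 0.18 against 1.37 ± 0.06. There both ends lay closer to 0 in cKO, with lower quartiles of -0.87 and -0.70 and upper quartiles of 0.87 and 0.68.

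Member by member, the ratios of the 2 genotypes ran almost parallel. Across the 500 members, the mean cKO ratio correlated with the mean WT ratio at 0.98, and the slope of cKO on WT was 0.80. Over all probes tested the correlation was 0.93 and the slope 0.78, so a slope under 1 was not particular to the members. The points share arrays, antibody and dyes.

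No member passed the test for a genotype difference in ratio, in either direction (background 0% higher and 0.00353% lower, which is 1 of 28344 probes, limma with Benjamini-Hochberg adjustment). At an unadjusted p under 0.05, 95 members were higher in cKO (19% of members, background 8.99%) and 8 were lower (1.6%, background 7.83%). The difference was above 0 in 366 members (73.2%, background 52.4%) and below 0 in 134. Its median was 0.26 against 0.03 over all probes. In 153 members all cKO ratios lay above all WT ratios (30.6%, background 14%), and in 7 all lay below (1.4%, background 10.3%). A probe without a value on every array was not counted as apart, here and in the like counts below. For the ratio, 447 of the 500 members had a value on every array, against 28070 of the 28344 probes. The members' shares are therefore held down more than the background.

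Whether this lean to higher ratios in cKO was there depended on the processing. With normexp, loess and Aquantile normalization, 107 members were higher and 10 lower at an unadjusted p under 0.05. These were 21.4% and 2% of members, against 7.13% and 6.46% of all probes. With background-subtracted signals they were 131 and 6 (26.2% and 1.2%), against 9.37% and 8.08%. With normexp correction alone the order turned, with 8 higher and 17 lower (1.6% and 3.4% of members), where all probes had 2.12% higher and 5.97% lower. With the scan as a block they were 30 and 14 (6.13% and 2.86% of the 489 members fitted), against 6.63% and 6.64% of all probes, so the share of higher members was at the background and that of lower ones below it. Within scan 2 they were 42 and 19 (8.59% and 3.89%), against 9.14% and 8.89% of all probes, with a median member difference of 0.09. Both of these fits rest on WT 2 as the only WT array of scan 2, and within scan 2 the lone WT array is taken to vary like the cKO arrays. Single arrays mattered too, with 44 higher and 6 lower without WT 3, 41 higher without cKO 1 and 36 higher without cKO 2. The shares of all probes in these fits are not given here, so whether a lean of the members remained in them cannot be read.

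At an unadjusted p under 0.05, the lean lay with the members that were low in the ratio. Of the 95 members higher in cKO at an unadjusted p under 0.05, 93 were below 0 in both genotypes, and 7 of the 8 lower members were above 0 in both. Among the 209 members below 0 in both, 201 (96.2%) had a higher ratio in cKO, with a median difference of 0.53. Of all 7458 probes below 0 in both, 77.9% had a higher ratio in cKO, with a median difference of 0.29. Among the 162 members above 0 in both, 105 (64.8%) had a lower ratio in cKO, with a median difference of -0.06, against 68.7% and -0.16 for all 7075 such probes. As processed here, probes of either class thus lay closer to 0 in cKO in general, not only the members. The direction of the difference leaned also among the 129 members in neither class. Of these, 108 (83.7%) had a higher ratio in cKO, with a median difference of 0.27. Their median ratio was -0.01 in WT and 0.16 in cKO. Of all 13811 probes in neither class, 49.4% had a higher ratio in cKO, with a median difference of -0.007. The classes were made from the same ratios, so these counts are a description, with no test of the members against the rest.

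The direction in the low class held under each of the 5 alternatives tried for it, and that in the high class did not. For members below 0 in both, the median difference was 0.32 with normexp, 0.46 with normexp, loess and Aquantile normalization, 0.76 with background-subtracted signals, 0.41 with the filter that asks for detection on every array, and 0.50 within scan 2. Over all probes below 0 in both it was 0.02, 0.05, 0.32, 0.20 and 0.24 in the same order. For members above 0 in both it was -0.20, -0.09, 0.20, -0.17 and -0.29 in that order, so the sign turned with background-subtracted signals, where 140 of 162 were higher in cKO. Within scan 2, 174 of 206 members of the low class were higher and 138 of 159 of the high class were lower in cKO.

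In the low class the median differences of the single fractions had opposite signs. In members below 0 in both genotypes, the median IP difference was 0.27 and the median supernatant difference was -0.22 (log2, cKO minus WT), and in members above 0 in both they were -0.11 and 0.02. Signals were scaled within each channel, so these differences are relative to the channel's 75th percentile.

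The smallest p among members with a higher ratio in cKO belonged to ASMM10EP3A100204100. Its log2 ratios were -2.33 on both WT 2 and WT 3 (WT 1 was an outlier spot and was left out) and -0.73, -1.12 and -1.31 in cKO. All cKO ratios lay above both WT ratios, and the difference of 1.28 ± 0.27 (SE), or 2.43-fold, did not pass the test (adjusted p = 0.151 in limma). Its IP signal was 5.59 and 5.66 on WT arrays and 7.00, 6.94 and 6.76 on cKO arrays, while its supernatant signal was 7.97 and 7.94 on WT arrays and 7.74, 8.12 and 8.11 on cKO arrays. Its IP signal was thus apart between genotypes and its supernatant signal overlapped. ASMM10EP3A124271522 had ratios of -2.22, -2.20 and -2.63 in WT and of -1.10, -1.18 and -1.58 in cKO, a difference of 1.06 ± 0.24 (adjusted p = 0.153) without overlap.

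The smallest p among members with a lower ratio in cKO belonged to ASMM10EP3A100150101. Its log2 ratios were 1.74, 2.23 and 2.10 on WT arrays and 0.55, 1.12 and 0.93 on cKO arrays, without overlap, a difference of -1.16 ± 0.25 (SE), or 2.23-fold, that did not pass the test (adjusted p = 0.145 in limma). Here the supernatant signal was apart, with 6.55, 5.96 and 6.39 on WT arrays and 7.52, 6.97 and 7.42 on cKO arrays. The IP signal overlapped, with 8.33, 8.15 and 8.54 in WT and 8.06, 8.03 and 8.32 in cKO. ASMM10EP3A100046303 had ratios of 1.37, 1.82 and 1.80 in WT and of 0.42, 0.92 and 0.57 in cKO, a difference of -1.03 ± 0.24 (adjusted p = 0.159) without overlap. On cKO 2 both of its fractions were lower than on any other array, at 5.74 in the IP and 4.87 in the supernatant.

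With normexp, loess and Aquantile normalization 4 members passed for the ratio in limma. The number passing among all probes under that normalization is not given here, so these 4 cannot be set against a background. They were ASMM10EP3A100204100 (1.23, adjusted p = 0.0377), ASMM10EP3A100150101 (-1.13, adjusted p = 0.0496), ASMM10EP3A100046303 (-1.03, adjusted p = 0.0381) and ASMM10EP3A100183119 (-0.96, adjusted p = 0.0381), the last named after its values were seen. With only probes well above background on all arrays, ASMM10EP3A100150101 passed (-1.27, adjusted p = 0.0392), among 18037 probes of which 19 were higher and 165 lower. Over the 16 alternatives, the adjusted p of ASMM10EP3A100150101 ranged from 0.0392 to 0.498 and that of ASMM10EP3A100204100 from 0.0377 to 0.564.

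The total signal is the summed level that chose the members, through its mean over the 6 arrays and not through its genotype difference. Its counts are therefore given as a description, beside a background that includes dimmer probes. Between genotypes the total signal differed little among members. No member passed the test (background 0.13% higher and 0.061% lower among 36051 probes, limma with Benjamini-Hochberg adjustment), the median difference was -0.06, and no member differed over 2-fold. At an unadjusted p under 0.05, 2 members were higher (background 3.87%) and 12 lower (background 5.83%). In 4 members with a value on every array all cKO arrays lay above all WT arrays (background 6.09%), and in 30 all lay below (background 9.28%). Among members the median replicate SD of the total signal was 0.29, against 0.26 over all probes.

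The member with the smallest p for a higher total signal was ASMM10EP3A112039034, with 7.45, 7.29 and 7.53 on WT arrays and 8.31, 7.83 and 8.09 on cKO arrays. The genotypes did not overlap, and the difference of 0.66 ± 0.19 (SE) did not pass in limma (adjusted p = 0.293). It was followed by ASMM10EP3A104174357, with 8.16, 8.21 and 8.42 in WT and 8.93, 8.63 and 8.59 in cKO (0.45 ± 0.18). Both fractions of the first member were higher on every cKO array, and its ratios overlapped, with a difference of 0.00 ± 0.27. The lower members of smallest p were ASMM10EP3A100095163, with 8.19, 7.99 and 8.19 in WT and 7.41, 7.57 and 7.76 in cKO (-0.55 ± 0.18), and ASMM10EP3A109704462, with 8.17, 7.76 and 8.21 in WT and 7.37, 7.49 and 7.61 in cKO (-0.56 ± 0.19). Neither overlapped between genotypes, and neither passed (adjusted p = 0.357 and 0.381 in limma).

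1 array decided a call of total signal. ASMM10EP3A100027825, named after its values were seen, had total signals of 8.58 and 5.68 on WT 1 and WT 3 (WT 2 was an outlier spot) and of 8.09, 8.12 and 8.15 in cKO. The genotypes overlapped, and the difference of 0.98 did not pass (adjusted p = 0.763 in limma). Without WT 1, its only WT value was the low one, and the difference of 2.43 passed (adjusted p = 0.0333, the lone WT value being taken to vary like the other group).

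In the IP fraction alone no member passed (background 0.0687% higher and 0.0358% lower among 33499 probes, limma with Benjamini-Hochberg adjustment). At an unadjusted p under 0.05, 15 were higher (background 4.7%) and 7 lower (background 7.13%). Of the 500 differences 300 were above 0 (60%, background 49.2%), with a median of 0.10. In 8 members with a value on every array all cKO arrays lay above all WT arrays (background 6.9%), and in 23 all lay below (background 10.7%). Members with an outlier spot are not in these counts. Beside ASMM10EP3A100204100, the smallest p for a higher IP signal was that of ASMM10EP3A114136116, with 6.50 and 6.21 in WT (WT 1 was an outlier spot) and 7.46, 7.50 and 7.41 in cKO. Its difference was 1.10 ± 0.24 (SE, adjusted p = 0.175). The lower members of smallest p were ASMM10EP3A100094182, with 7.65, 7.85 and 7.80 in WT and 6.74, 7.07 and 7.05 in cKO (-0.81 ± 0.21, adjusted p = 0.230 in limma), and ASMM10EP3A100161738 (-0.61 ± 0.20). In all 4 members the genotypes did not overlap in the IP. With normexp correction ASMM10EP3A113400679, named after its values were seen, passed at 1.39 (adjusted p = 0.0473 in limma), against 1.09 and 0.217 as processed here. The number of all probes passing in the IP with normexp is not given here, so this call cannot be set against a background.

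In the supernatant fraction no member passed either (background 0.202% higher and 0.0193% lower among 31155 probes, limma with Benjamini-Hochberg adjustment). At an unadjusted p under 0.05, 4 were higher (background 7.09%) and 7 lower (background 3.17%). Of the 500 differences 365 were below 0 and 135 above 0 (27%, background 49.8% above 0), with a median of -0.10. In 5 members with a value on every array all cKO arrays lay above all WT arrays (background 9.37%), and in 22 all lay below (background 7.23%). The smallest p for a higher supernatant signal was that of ASMM10EP3A100150101, whose values are given above (1.00 ± 0.25, SE, adjusted p = 0.187 in limma). ASMM10EP3A118559534, the member with the highest WT ratio, followed with 5.41, 4.70 and 4.67 in WT and 6.04, 5.60 and 5.89 in cKO (0.92 ± 0.26, adjusted p = 0.251), again without overlap. The lower members of smallest p were ASMM10EP3A100127925, with 8.22, 7.38 and 7.39 in WT and 6.84, 7.03 and 7.06 in cKO (-0.69 ± 0.27), and ASMM10EP3A109704462 (-0.57 ± 0.22), whose total signal was also lower.

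The ratio pattern of the members continued into the probes ranked just after them. At ranks 501 to 1000 the median ratio was -0.40 ± 0.19 in WT and -0.14 ± 0.02 in cKO (SD, n = 3), and the interquartile range 2.21 ± 0.15 and 1.73 ± 0.36. In that group 93 probes were higher and 10 lower in cKO at an unadjusted p under 0.05, and 49.7% passed below 0 in WT. At ranks 1001 to 1500 the median ratio was -0.03 ± 0.16 in WT and 0.09 ± 0.02 in cKO, with 69 higher and 27 lower. The low median and the lean were therefore not particular to the 500 brightest probes and were smaller at ranks 1001 to 1500. The interquartile range of the members, 2.35 in WT and 1.76 in cKO, was not the widest: it was 2.51 and 2.02 at ranks 4501 to 5000, and 1.55 ± 0.11 and 1.29 ± 0.01 at ranks 14501 to 15000.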

How the data were processed

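The study measured IP and supernatant RNA of 6 kidneys, 3 per genotype, as 12 samples on 6 arrays with 2 colours each, of 62976 spots. Groups and replicate numbers come from the labels, which call the replicates biological. The deposited intensity values are linear scanner signals of both channels from Agilent Feature Extraction 11.0.1.1, per the submitters' processing notes, and per the file headers the processed signals are background-subtracted and dye-normalized. Dyes were not swapped, so a probe's dye effect cannot be told apart from its recovery by the antibody.

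The analysis used R (4.3.3), limma (3.58.1) and the data.table package (1.17.8). Control spots and outlier spots were dropped, and the spots of each probe were averaged on the log2 scale. Ratios were centred on the array's median with no loess, and fractions were divided by their 75th percentile. A probe entered a fit when 3 or more of the 6 arrays had it well above background, in both channels for the ratio. limma's lmFit and eBayes were fitted on all kept probes, two-sided, with Benjamini-Hochberg adjustment over all of them. The script was tested on simulated data. The number of arrays limits the precision.

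Per comparison, up to 2 members in each direction are named, by the size of the difference where members passed and otherwise by the smallest p, together with the 2 brightest. Gene symbols were looked up in RefSeq's gene annotation (GRCm38.p6). The members and lists were chosen with earlier results of these data known. Alternatives were other background corrections (normexp with an offset of 50, background-subtracted signals with a floor of 1), normalizations, filters, memberships, thresholds, blocks and leaving out each array. The scan was planned as a slide, but the headers used here identify a scan. Counts at an unadjusted p were added after the data were seen. Gene lists and cell type markers could not be applied to unnamed members.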

Additional observations from a re-analysis of the deposited data

Results flagged for a closer look

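In 3 members the log2 ratio was below 0 on all 3 WT arrays and above 0 on all 3 cKO arrays, and in no member was it the other way round. That is 0.671% of the 447 members with a value on every array, against 0.713% of 28070 such probes in all, of which 1.08% went the other way. The share of members is thus at the background. ASMM10EP3A100149150 had -0.17, -0.00054 and -0.0031 in WT and 0.24, 0.35 and 0.36 in cKO. ASMM10EP3A100096417 had -0.08, -0.05 and -0.39 in WT and 0.11, 0.14 and 0.04 in cKO. ASMM10EP3A112139171 had -0.13, -0.08 and -0.11 in WT and 0.19, 0.26 and 0.09 in cKO. All lay close to the median probe, and the differences of 0.37 ± 0.20, 0.27 ± 0.21 and 0.29 ± 0.20 (SE) did not pass in limma (adjusted p = 0.378, 0.538 and 0.482).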

How the results depend on the processing

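All 364 alternative values of the 24 named results kept their direction. These results were picked by size or smallest p in the same data, which favours a kept direction. Some alternatives also cannot change an estimate, such as another variance model or leaving out arrays of the other genotype for a ratio against 0. The count is therefore a description. In 4 of the values the threshold was passed where the value as processed here did not, all for the ratio and given above. Of 410 values of counts and medians, 346 stayed close and 64 moved. The cause was not tested unless fewer probes or arrays account for it. Close meant an equal count or one within 1.5-fold, and for other values a shift no larger than the SD. This is a loose measure: the WT counts with normexp, 200 above and 170 below against 166 and 242, are close by it though their order turned. A count given below without a share of all probes is not read against a background.

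With normexp, members below 0 in cKO fell to 130, ratios at an unadjusted p under 0.05 were 8 higher and 17 lower (2.12% and 5.97% of all probes), 1 member passed as higher in the IP, the median ratio was 0.10 in WT and 0.20 in cKO (difference 0.10), and the signal shares were 28.6% and 31.1% in the IP and 28.2% and 29.5% in the supernatant (WT, cKO). With normexp, loess and Aquantile, 1 member passed higher and 3 lower in ratio, the medians were -0.18 and 0.020, and the shares 28.1%, 29.7%, 30.4% and 29.6%. With background-subtracted signals the cKO median was 0.087 and the difference 0.53. With probes well above background on all 6 arrays, 1 member passed lower in ratio and the medians were -0.063 and 0.069. Without a filter 41 were higher at an unadjusted p under 0.05, the WT median was -0.19 and the difference 0.076.

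With the scan as a block, 30 were higher and 14 lower at an unadjusted p under 0.05, against 6.63% and 6.64% of all probes. Within scan 2, where WT 2 is the lone WT array, they were 42 and 19, against 9.14% and 8.89%, and WT 2 had an interquartile range of 2.54 and a supernatant share of 34.7%. With the 250 brightest members, 89 passed above and 131 below 0 in WT (background 33.2% and 33.8%) and 96 and 108 in cKO (background 28.5% and 29.7%). At an unadjusted p under 0.05, 45 were higher and 3 lower (background 8.99% and 7.83%). In these members 175 differences were above 0, the medians were -0.51 and -0.21, and the shares 23.4%, 23.9%, 24.2% and 23.9%. With the 500 brightest by their lowest array the medians were -0.46 and -0.24. At an unadjusted p under 0.05 and a 1.5-fold difference, 75 were higher and 8 lower in ratio, 1 and 2 in total signal, 13 and 5 in the IP and 4 and 2 in the supernatant. The shares of all probes at this threshold are not given here, so these counts say nothing about the members against the rest.

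Leaving out each array gave 95 to 187 members above 0 in cKO, 36 to 130 higher and 5 to 13 lower ratios at an unadjusted p under 0.05, and 0 to 1 member passing as higher in total signal.

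Deviations of same-numbered WT and cKO arrays in the ratio correlated at 0.32, 0.27 and 0.08, and those of unlike-numbered arrays at -0.29 to 0.08. In the total signal the same-numbered values were -0.09, 0.24 and -0.03. The main fits did not take the numbers to pair the samples, and whether they do was not tested. With the replicate block, 125 ratios were higher and 8 lower at an unadjusted p under 0.05, with no share of all probes given here, and no member passed.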

Other observations

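The members split by identifier, a split looked at after the data were seen. Of the 500 members, 164 (32.8%) have 9-digit identifiers that begin with 100, against 20.3% of all ASMM10EP3A probes. Their median ratio was 0.04 in WT and 0.25 in cKO, while that of the other 336 members was -0.54 and -0.25. The difference between the 2 runs of identifiers was between 0.41 and 0.66 on each of the 6 arrays. Over all ASMM10EP3A probes with a ratio the medians were 0.38 and 0.34 for identifiers beginning with 100 and 0.01 and -0.03 for the rest. What the identifiers encode is not given in the sources used here.

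In 2 members the level on WT 3 was over 2 log2 units below the median of the other arrays, by -2.68 in ASMM10EP3A127485265 and by -2.46 in ASMM10EP3A100027825. No member departed that far on any of the other arrays. Their ratios on WT 3 were 0.58 and 0.12, against medians of 0.97 and 0.60 on the others, so both channels were low together.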
